A study of Homo sapiens with 6 samples.

Results

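A set of 54 genes for the G1/S transition and for DNA replication was followed by RNA-seq in SUM159 cells, a human line of triple-negative breast cancer, over 6 libraries. Each gene was taken from the count table by the Ensembl identifier of its symbol, and 54 of 54 were found among the 58336 genes listed. All 54 also passed the filter on low counts, which left 15673 genes for testing. In G1, the origin recognition complex with CDC6 and CDT1 loads the MCM helicase onto DNA, a step called licensing. Cyclin-dependent kinases then relieve the hold of the RB protein on the E2F transcription factors, which turn on much of this gene set. CDC45 and the GINS complex complete the helicase, and polymerases held by the PCNA clamp copy the DNA, so these transcripts are widely read as a measure of how many cells in a population are cycling through S phase.

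The libraries differed in ITGB4, the integrin beta-4 subunit, and in whether the cells had been through a mouse lung. ITGB4-high SUM159 cells grown in dishes gave 1 library. The control group was 2 libraries of ITGB4-low cells grown in dishes, from clone 1 and clone 3. LM2 lung cells were 2 libraries of ITGB4-low cells, clone 1 and clone 3, taken back from mouse lungs that also received LM2 cells, a lung-metastatic breast cancer derivative. The bleomycin group was 1 library of ITGB4-low clone 1 from lungs of mice given this injurious drug by the trachea. All lung cells entered by the tail vein, and after dissociation the suspension stayed in culture overnight before tdTomato-positive cells were sorted. Trigger, lung passage and handling therefore cannot be told apart, and lungs with ITGB4-low cells but without a trigger were not analysed here. The ITGB4-low cells are single clones, the mouse strain and number per library are not given in the labels, and LM2 for clone 3 rests on the series text and a title. No label says that libraries came from separate cultures or animals, so p-values measure only the spread between these libraries.

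Total counts ran from 13607953 to 22222121, and mitochondrial transcripts took 5.35% to 7.08% of them. ITGB4 was at 383 CPM (counts scaled to a total of 1000000, normalised) in the ITGB4-high library and at 25.9 and 24.6 CPM in the controls, and at 470, 441 and 305 CPM in LM2 clone 1, LM2 clone 3 and bleomycin. The lung libraries labelled ITGB4-low were thus as high in ITGB4 as the labelled ITGB4-high one or near it. The list for this line (VIM, AXL, CD44, FN1, ITGB1 and ITGA6) was detected in full in every library, but its level was not constant. It summed to 14660 and 15220 CPM in controls, 6963 in the ITGB4-high library, 9063 and 10210 in LM2 and 11810 in bleomycin. The luminal breast list (ESR1, PGR, FOXA1, GATA3, KRT8 and KRT18) was not absent. It summed to 123 CPM in the ITGB4-high library, 174 and 194 in controls, 196 and 222 in LM2 and 175 in bleomycin. In each library 4 or 5 of its 6 genes were detected, and PGR was at 0 in all. The lungs were of mouse, but the counts are of human genes aligned to hg38. The lists for other lung cells therefore cannot show whether mouse cells were present. Of these human genes, C1QA, C1QB, CDH5, SFTPC and SFTPA1 were at 0 in all libraries, and the lymphocyte list summed to at most 0.064 CPM. The macrophage list summed to 1.09 to 1.38 CPM in dishes and 2.30 to 3.97 in lung cells. The endothelial list, mostly KDR, summed to 72.6 and 107 CPM in controls and 2.63 to 11.3 elsewhere, and the alveolar list, mostly ABCA3, to 40.1 and 31.1 CPM in controls, 6.63 in the ITGB4-high library and 15.3 to 56.5 in lung cells. The fibroblast list summed to 124 to 199 CPM in dishes and to 499 to 822 CPM in lung cells, mainly COL1A1 and PDGFRA. The part of these marker levels in the results was not tested.

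The promoters of these genes carried the letters bound by E2F far above the share over all RefSeq promoters, and a few are shown. E2F factors turn on much of this gene set, so a high share could be foreseen and is only a description. The background share is over all genes with a promoter entry, whether or not they were expressed here. RefSeq promoters (GRCh38.p14, 250 bases before to 50 after the start) were matched for 45 of the 54 genes, leaving out MCM4, MCM5, GINS4, POLD3, DSCC1, RPA2, CCND1, CCNE2 and E2F8. TTTCGCGC or TTTGGCGC, searched on both strands, stood in promoters of 16 of 45 genes (35.6%), against 382 of 27305 genes (1.4%). CCAAT, the letters bound by NF-Y, stood in 27 of 45 (60%), against 39.7% of all genes. TTTGAA, the CHR letters of G2/M promoters, also searched with CCAAT on both strands, stood in 2 of 45 (4.44%), against 18.2%. The stretch from 120 bases before to 30 after the start is printed for 6 of the 16, each 5′ to 3′ on the gene's strand, with the E2F letters in capitals.
MCM2 (chr3:127598291-127598440, plus strand): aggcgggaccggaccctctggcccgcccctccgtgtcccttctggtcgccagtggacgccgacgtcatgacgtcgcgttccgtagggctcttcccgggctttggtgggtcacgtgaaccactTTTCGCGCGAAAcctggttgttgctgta
MCM7 (chr7:100101368-100101517, minus strand): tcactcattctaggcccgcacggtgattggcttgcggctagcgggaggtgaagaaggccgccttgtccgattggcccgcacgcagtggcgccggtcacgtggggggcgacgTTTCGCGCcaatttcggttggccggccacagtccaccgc
CDC6 (chr17:40287759-40287908, plus strand): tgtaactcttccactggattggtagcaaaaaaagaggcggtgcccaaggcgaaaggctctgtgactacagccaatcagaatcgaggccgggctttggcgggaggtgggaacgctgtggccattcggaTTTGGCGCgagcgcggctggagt
POLE2 (chr14:49688185-49688334, minus strand): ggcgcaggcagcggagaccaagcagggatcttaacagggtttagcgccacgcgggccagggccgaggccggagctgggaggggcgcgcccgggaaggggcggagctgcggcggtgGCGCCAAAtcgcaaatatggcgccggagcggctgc
E2F1 (chr20:33686356-33686505, minus strand): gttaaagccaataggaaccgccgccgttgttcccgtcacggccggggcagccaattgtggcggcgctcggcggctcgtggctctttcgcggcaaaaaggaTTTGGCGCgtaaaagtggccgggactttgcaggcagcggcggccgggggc
CDC25A (chr3:48188388-48188537, minus strand): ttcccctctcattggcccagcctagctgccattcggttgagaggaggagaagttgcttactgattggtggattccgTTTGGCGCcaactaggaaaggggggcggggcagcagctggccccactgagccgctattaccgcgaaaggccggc
In MCM2 a match on each strand overlaps to give 1 palindrome, and in POLE2 the letters lie on the opposite strand. The matches begin between 44 bases before the start, in CDC25A, and 7 after it, in CDC6. Most genes with these letters were below control in LM2 clone 1, as most of the set was, but not all. Log2 ratios to its own control were −0.82 (MCM2), −0.685 (MCM7), −0.61 (POLE2), −1.84 (E2F1), 0.82 (CDC6) and 0.59 (CDC25A). Of the others, E2F2 was at −2.84, MCM3 at −1.06, GINS1 at −0.93, UHRF1 at −0.885 and MCM6 at −0.71. POLA1 was at −0.56, POLA2 at −0.42, EXO1 at −0.39, DTL at −0.19 and POLE at 0.002. E2F1 and CDC25A stood on opposite sides of control in all 3 lung libraries.

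The replication genes were lower as a group in LM2 clone 1 than in its control, and near control in the other lung libraries. Values are log2 ratios of normalised CPM, each lung library over the control of its own clone. In LM2 clone 1 the median of the 54 genes was −0.42, against −0.04 over all tested genes. LM2 clone 3 had a median of 0.04, against −0.02 over all genes, and bleomycin had −0.02, against −0.02. In LM2 clone 1 there were 43 of 54 genes below 0, where 53.1% of all tested genes were. In LM2 clone 3 there were 24 of 54 below 0, beside 52% of all genes, and in bleomycin 29 of 54, beside 51.9%. The low side of LM2 clone 1 was thus above the background share and the others were close to it. In a bulk library, fewer cells in S phase and less of these RNAs per cell cannot be told apart.

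**Figure D1:**
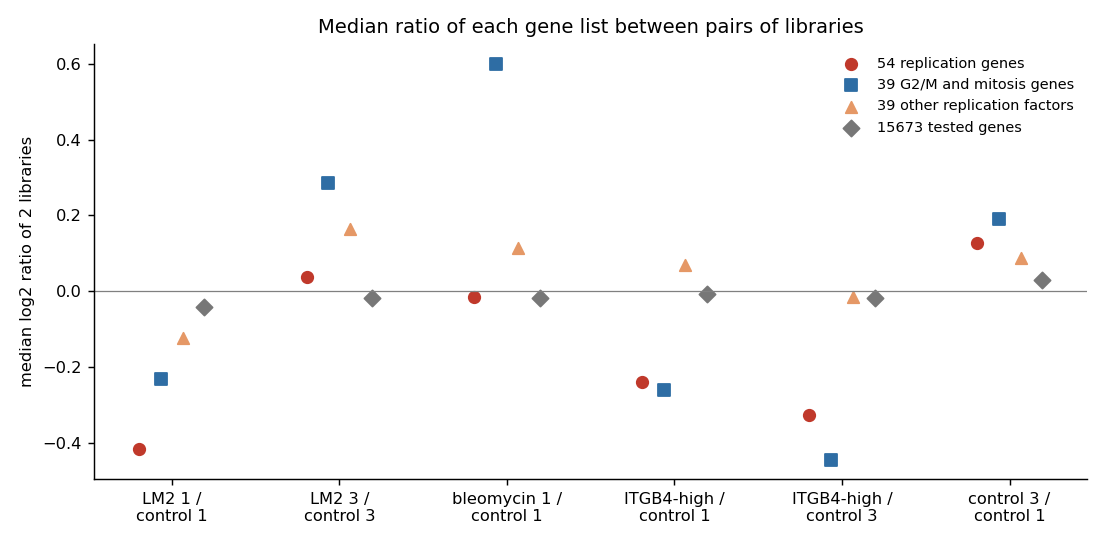
Median log2 ratio (y axis) of the 54 replication genes, 39 G2/M and mitosis genes, 39 other replication factors and all 15673 tested genes for 6 pairs of libraries (x axis). Each point is a median over genes and carries no replicate error; the replication genes sit at −0.42 in LM2 clone 1 and within 0.04 of 0 in the other lung libraries, while the G2/M genes reach 0.60 in bleomycin.

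LM2 clone 1 held the lowest of the 6 values in 29 of 54 genes, beside 22.6% of all tested genes. Its ratio lay at −0.5 or less in 22 of 54, beside 25.6%. The genes took 0.243% of reads there, 0.266% in the ITGB4-high library and 0.313% to 0.332% in the others. Its ratio was below that of LM2 clone 3 in 45 of 54 genes, where 51.7% of all genes were, with a median difference of −0.45. In 24 of 54 genes LM2 clone 1 was below its control while LM2 clone 3 was above its own, beside 17.4% of all genes. Across the 54 genes the ratios of both clones had a Pearson r of 0.44 and a Spearman rho of 0.43, and over all 15673 genes 0.55 and 0.45. These describe genes within the same 4 libraries, which are not independent replicates. Control clone 3 itself was above control clone 1 in 43 of 54, beside 55.8% of all genes, with a median of 0.13.

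G2/M and mitosis genes did not follow the replication genes in bleomycin. Their median over 39 genes was −0.23 in LM2 clone 1, 0.28 in clone 3 and 0.60 in bleomycin. In bleomycin 39 of 39 were above control 1, beside 48.1% of all tested genes, whose median was −0.02. Control 3 was itself above control 1 in 35 of 39, beside 55.8% of all genes. In the fit against both controls, 36 of 39 were higher in bleomycin, with a median of 0.51. Over all 15673 tested genes 7484 were higher and 8182 lower, with a median of −0.03. Of the replication genes 34 of 54 were lower in this fit, with a median of −0.11. CDK1, the mitotic kinase, was at 135 and 166 CPM in controls, 68.4 and 170 in LM2 clones 1 and 3, 198 in bleomycin and 66.7 in the ITGB4-high library. AURKA, the spindle pole kinase, was at 80.6 and 92.8 CPM in controls, 92.3 and 132 in LM2 lung cells, and 162 in bleomycin. Neither gene stands for the list. In LM2 clone 1 the ratios of the 39 genes ran from −0.98 to 0.43, with 33 below 0 and 6 above. Thus, by medians over control 1, bleomycin cells stood at control for replication and above it for mitosis. LM2 clone 1 stood below control 1 for both. None of the 39 G2/M genes passed the test in any of 6 comparisons.

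No replication gene passed edgeR's quasi-likelihood test at an adjusted p of 0.05 in any of 6 comparisons. Few genes of any kind did. For lung against control 0 of 54 were called beside 0.498% of all tested genes, for LM2 against control 0 beside 0.0319%, and for bleomycin against control 0 beside 0.0255%. For ITGB4-high against control 0 of 54 were called beside 0.0893%, for lung against ITGB4-high 0 beside 0.108%, and for bleomycin against LM2 0 beside 0%. At an unadjusted p under 0.05 the counts were 5 of 54 for lung against control (20.5% of all genes), 2 for LM2 against control (15.6%) and 3 for bleomycin against control (14.5%). They were 10 of 54 for ITGB4-high against control (24.5%), 9 for lung against ITGB4-high (18.3%) and 1 for bleomycin against LM2 (4.61%). None of these member shares was above the background. By limma-voom 0 of 54 were called in all 6 comparisons. DESeq2 called 1 (CDC25A) for lung against control, where it called 8.06% of all genes, and 1 (RRM1) for bleomycin against control, beside 3.68%. It called 5 for ITGB4-high against control, beside 9.63%, and 6 for lung against ITGB4-high, beside 6.93%. For LM2 against control and bleomycin against LM2 it called 0, beside 4.13% and 0.338%.

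These counts depended on the LM2 libraries. Without LM2 clone 1, the spread came from the control pair in the fit with 4 groups, and 27 of 54 genes were called for ITGB4-high against control (4 higher, 23 lower), beside 42% of all genes. Bleomycin against control then had 16 called (8 higher, 8 lower; 28.1% of all genes) and LM2 clone 3 against control 6 (5 higher, 1 lower; 11.6%). Bleomycin against LM2 had 3 (7.42%), lung against ITGB4-high 8 (9.1%) and lung against control 0. Without LM2 clone 3, LM2 clone 1 against control had 33 of 54 called (3 higher, 30 lower), beside 40.8% of all genes. The same fit gave 14 for bleomycin against control (27.2%), 26 for ITGB4-high against control (41.6%) and 24 for bleomycin against LM2 (22 higher, 2 lower; 19.2%), and lung against control had 2 (UNG and E2F1, both lower; 6.55%). A group left with 1 library is assumed there to vary like the control pair.

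**Figure D2:**
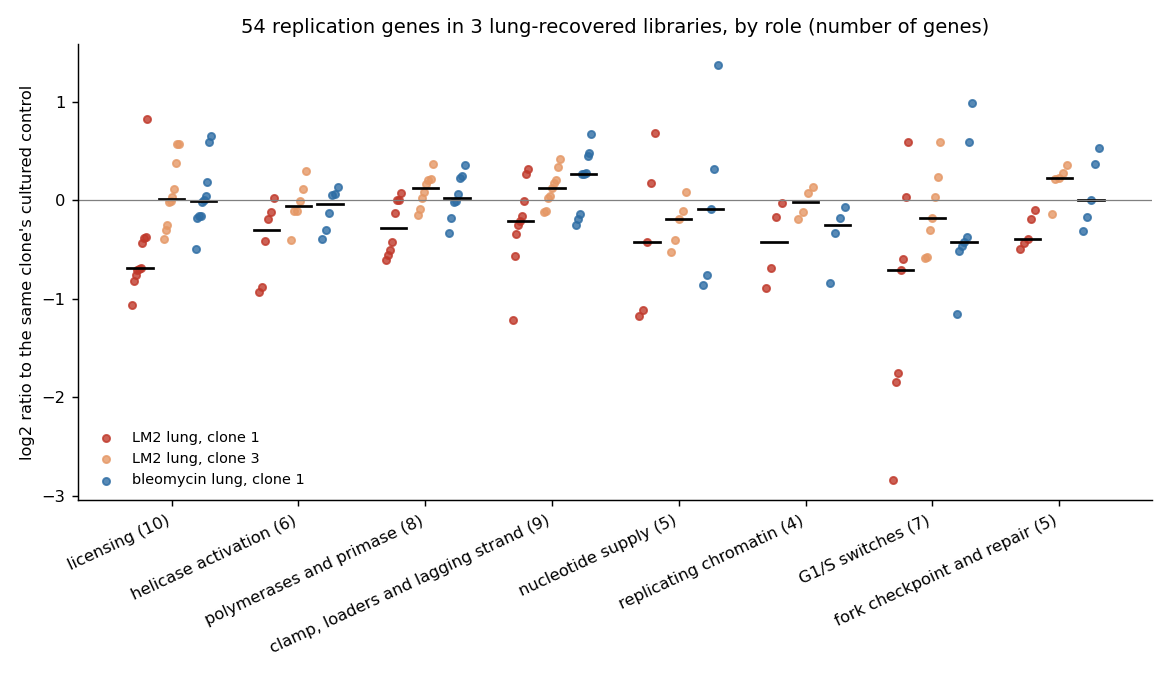
Log2 ratio of each of the 54 genes to the control of the same clone (y axis), by role (x axis, number of genes in brackets), in LM2 clone 1, LM2 clone 3 and bleomycin. Each point is 1 gene in 1 library and black bars are medians; in LM2 clone 1 the bars for licensing (−0.69) and G1/S switches (−0.71) lie lowest.

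Over the 3 lung libraries pooled, ratios of the G1/S switches ran from −2.84 to 0.99, and those of the nucleotide supply genes from −1.17 to 1.38. Their median over 7 genes was −0.71 in LM2 clone 1, −0.18 in clone 3 and −0.42 in bleomycin. E2F1 (chromosome 20, 33675683 to 33686404, minus strand), an activator of the S-phase genes, was at 20.5 and 22.4 CPM in controls. It was at 5.65 in LM2 clone 1, 14.9 in LM2 clone 3, 9.15 in bleomycin and 13.3 in the ITGB4-high library. All 3 lung values lay below both controls, with own-clone log2 ratios of −1.84, −0.58 and −1.16. The fitted lung difference was −1.11 ± 0.38 (SE), with an unadjusted p of 0.0263 and an adjusted p of 0.193 by edgeR.

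CDC25A (chromosome 3, 48157146 to 48188402, minus strand), the phosphatase that removes the inhibitory mark from CDK2, was at 22.1 and 23.7 CPM in controls. It was at 33.2 in LM2 clone 1, 35.7 in LM2 clone 3, 33.3 in bleomycin and 35.9 in the ITGB4-high library. The 4 ITGB4-rich libraries thus formed a narrow band above both controls, and the own-clone ratios of the 3 lung libraries were 0.59, 0.59 and 0.59. Lung cells averaged 34.1 ± 1.45 CPM (SD, n = 3) and controls 22.9 ± 1.18 (SD, n = 2). The fitted lung difference was 0.57 ± 0.13 (SE), a fold of 1.49, with an edgeR adjusted p of 0.113, the smallest of the 54 genes in this comparison, and 0.0104 by DESeq2.

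Of the G1 cyclins, CCND1 (cyclin D1), the partner of CDK4 and CDK6, was at 417 and 446 CPM in controls, 426 and 299 in LM2 clones 1 and 3, 292 in bleomycin and 491 in the ITGB4-high library, so LM2 clone 1 was at its control while the other lung libraries were below both. CCNE2 (cyclin E2), a partner of CDK2, was at 13.1 and 14.4 CPM in controls, 3.79 and 11.7 in LM2, 9.47 in bleomycin and 8.60 in the ITGB4-high library. CCNE1 (cyclin E1) was low throughout, at 5.26 and 4.36 CPM in controls, 3.17 and 3.83 in LM2, 4.03 in bleomycin and 5.69 in the ITGB4-high library. For both E cyclins the 3 lung libraries were below both controls, and the adjusted p for lung against control was 0.392 for CCNE2 and 0.424 for CCNE1. CCNE2 shares 1629 exon bases with INTS8 on the opposite strand, which was at 84.7 CPM in bleomycin and 56.4 to 65.5 elsewhere, and the strand setting of the counting is not given in the sources used here.

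E2F2 and E2F8 are given because their values stood out. E2F2, an activator like E2F1, was at 13.5 and 16.4 CPM in controls, 1.78 in LM2 clone 1, 16.9 in LM2 clone 3, 10 in bleomycin and 5.83 in the ITGB4-high library. Its log2 ratio of −2.84 in LM2 clone 1 was the lowest of all 54 genes in any lung library, while LM2 clone 3 was at 0.04. E2F8, an atypical E2F that represses these targets late in S phase, was at 6.02 and 7.21 CPM in controls, 3.95 and 8.49 in LM2, 12.0 in bleomycin and 1.02 in the ITGB4-high library. The activator and the repressor therefore had their extremes in different libraries.

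**Figure D3:**
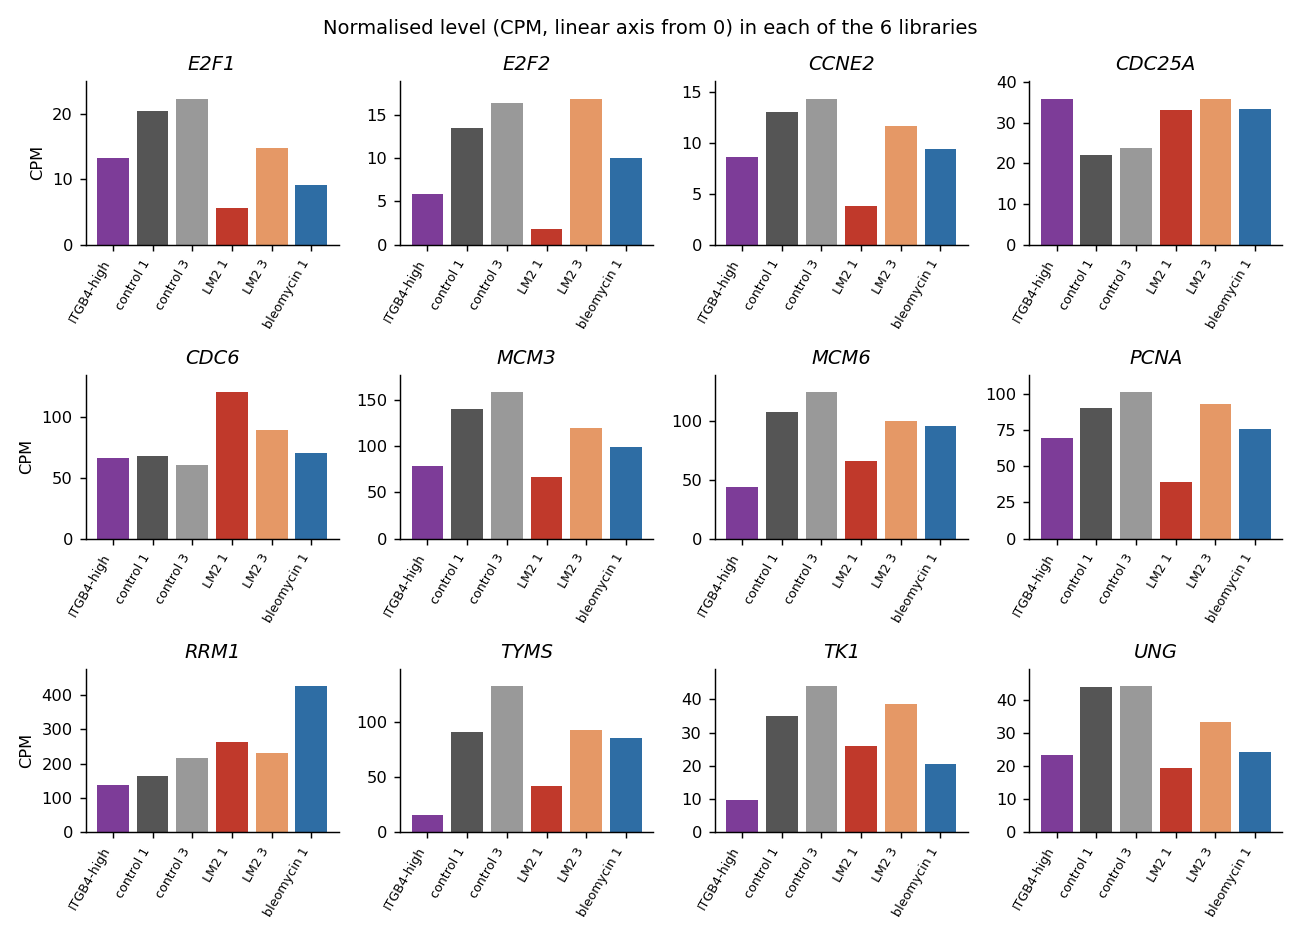
Level in CPM (y axis, linear from 0) of 12 genes in each of the 6 libraries (x axis), 1 bar per library with no error. CDC25A is at 33.2 to 35.9 CPM in the 4 ITGB4-rich libraries and at 22.1 and 23.7 in controls, and TYMS is lowest in the ITGB4-high library at 15.7 CPM.

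Among the 10 licensing genes, 9 were below control in LM2 clone 1, with a median of −0.69. In LM2 clone 3 and bleomycin the medians were 0.01 and −0.01. The exception was CDC6, the loader that recruits the helicase to origins, at 67.8 and 60.2 CPM in controls, 120 in LM2 clone 1, 89.3 in LM2 clone 3, 70.0 in bleomycin and 65.8 in the ITGB4-high library. Its LM2 difference was 0.71 ± 0.19 (SE), with an unadjusted p of 0.0152 and an adjusted p of 0.257 by edgeR. CDT1, which works with CDC6, was at 17.8 and 20.7 CPM in controls, 10.9 and 26.8 in LM2, 26.8 in bleomycin and 19.5 in the ITGB4-high library. CDT1 was therefore below its control in LM2 clone 1, at −0.70, and above it in LM2 clone 3, at 0.37, and bleomycin, at 0.59. ORC1, the largest subunit of the origin recognition complex, followed the same order, with ratios of −0.38, 0.57 and 0.66.

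The 6 subunits of the MCM2 to MCM7 ring were all below control in LM2 clone 1, by log2 ratios from −1.06 for MCM3 to −0.38 for MCM5. MCM3 was at 140 and 158 CPM in controls, 67.0 and 120 in LM2, 99.0 in bleomycin and 78.6 in the ITGB4-high library, so every other library was below both controls. The fitted lung difference of MCM3 was −0.64 ± 0.25 (SE), with an edgeR adjusted p of 0.223. MCM2 was at 79.4 and 84.8 CPM in controls, 45.0 and 83.9 in LM2, 70.2 in bleomycin and 87.0 in the ITGB4-high library, and only LM2 clone 1 was far from the controls. MCM7 was at 143 and 146 CPM in controls, 89.1 and 150 in LM2, 142 in bleomycin and 116 in the ITGB4-high library. The subunits form a ring in equal number, but levels per kb of exon cannot show whether their RNAs were equal. The length used is the union of all annotated exons, 7338 bases for MCM5 and 3650 for MCM3, and not that of the transcripts made. By this length, levels in control clone 1 ran from 38.3 CPM per kb for MCM3 and 32.7 for MCM7 to 16.2 for MCM2 and 7.48 for MCM5. In LM2 clone 1 they ran from 20.3 for MCM7 and 18.4 for MCM3 to 5.76 for MCM5.

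Helicase activation genes were nearer to control. The median of 6 genes was −0.30 in LM2 clone 1, −0.06 in clone 3 and −0.04 in bleomycin. MCM10, which is needed to start unwinding, was at 30.8 and 35.3 CPM in controls, 16.7 and 35.0 in LM2, 28.1 in bleomycin and 27.4 in the ITGB4-high library. CDC45, the helicase cofactor, was at 46.3 and 42.1 CPM in controls, 42.6 and 51.9 in LM2, 37.6 in bleomycin and 23.7 in the ITGB4-high library. For MCM10 the outlying library was LM2 clone 1, and for CDC45 the ITGB4-high library. The GINS genes had LM2 clone 1 ratios of −0.93 (GINS1), 0.02 (GINS2), −0.41 (GINS3) and −0.19 (GINS4).

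The polymerase and primase genes had ratios between −0.61 and 0.37 over the 3 lung libraries. Their median over 8 genes was −0.28 in LM2 clone 1, 0.13 in clone 3 and 0.03 in bleomycin. POLA1, the catalytic subunit that extends primers, was at 73.4 and 79.6 CPM in controls, 49.8 and 71.8 in LM2, 64.6 in bleomycin and 42.6 in the ITGB4-high library, all below both controls. POLE2, an accessory subunit of the leading-strand polymerase, was at 12.3 and 11.7 CPM in controls, 8.05 and 13.6 in LM2, 12.9 in bleomycin and 5.10 in the ITGB4-high library. POLD1, the catalytic subunit of the lagging-strand polymerase, was at 27.0 and 30.3 CPM in controls, 28.3 and 39.3 in LM2, 34.5 in bleomycin and 27.4 in the ITGB4-high library. Low values of POLA1 and POLE2 in the ITGB4-high library were thus not shared by POLD1. POLD3 stayed between 48.5 and 52.2 CPM in the 6 libraries.

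Clamp, loader and lagging-strand genes had a median over 9 genes of −0.21 in LM2 clone 1, 0.12 in clone 3 and 0.27 in bleomycin. PCNA, the sliding clamp, was at 90.3 and 101 CPM in controls, 38.9 in LM2 clone 1, 93.0 in LM2 clone 3, 75.8 in bleomycin and 69.8 in the ITGB4-high library. Its ratio of −1.21 in LM2 clone 1 was the lowest of these 9 genes, and the lung difference of −0.46 ± 0.35 (SE) had an edgeR adjusted p of 0.473. RFC4, a subunit of the loader that opens the clamp, was at 48.1 and 48.7 CPM in controls, 47.8 and 65.4 in LM2, 67.1 in bleomycin and 59.7 in the ITGB4-high library. The clamp and its loader thus differed, with RFC4 at control in the library where PCNA was lowest. RFC3, another loader subunit, had the highest bleomycin ratio of the group, at 0.67, and FEN1 and LIG1, which finish lagging-strand fragments, had LM2 clone 1 ratios of 0.26 and 0.32.

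Nucleotide supply genes held the highest lung ratio and the lowest ITGB4-high ratio of the set. RRM1 (chromosome 11, 4094707 to 4138876, plus strand), the large subunit of ribonucleotide reductase, was at 164 and 217 CPM in controls, 264 in LM2 clone 1, 231 in LM2 clone 3, 425 in bleomycin and 139 in the ITGB4-high library. Its bleomycin ratio to control 1 was 1.38, and the fitted difference was 1.16 ± 0.22 (SE), a fold of 2.24, with an edgeR adjusted p of 0.202 and 0.00451 by DESeq2. RRM2, the small subunit that is made in S phase, was at 119 and 165 CPM in controls, 134 and 153 in LM2, 148 in bleomycin and 73.7 in the ITGB4-high library. The subunits of this enzyme therefore differed in bleomycin, where RRM2 lay between the controls.

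UNG, which removes uracil from DNA, was at 44.1 and 44.3 CPM in controls, 19.5 and 33.4 in LM2, 24.3 in bleomycin and 23.5 in the ITGB4-high library. Its 4 values in the other libraries were all lower, and the fitted lung difference was −0.78 ± 0.23 (SE), with an edgeR adjusted p of 0.166. TYMS (chromosome 18, 657604 to 673578, plus strand), which makes thymidylate, was at 91.4 and 133 CPM in controls, 42 in LM2 clone 1, 92.9 in LM2 clone 3, 86.0 in bleomycin and 15.7 in the ITGB4-high library. TK1, the thymidine salvage kinase, named after its values were seen, was at 35.1 and 44.0 CPM in controls, 26.1 and 38.5 in LM2, 20.7 in bleomycin and 9.69 in the ITGB4-high library. Both thymidylate routes thus had their lowest level in the ITGB4-high library.

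Replicating chromatin genes had a median over 4 genes of −0.43 in LM2 clone 1, −0.02 in clone 3 and −0.26 in bleomycin. UHRF1, which guides maintenance methylation behind the fork, was at 22.5 and 21.7 CPM in controls, 12.2 and 19.1 in LM2, 12.5 in bleomycin and 16.5 in the ITGB4-high library. All 4 were below both controls, and the lung difference was −0.60 ± 0.24 (SE), with an edgeR adjusted p of 0.232. SLBP, which binds histone mRNA, kept to 78.2 to 98.1 CPM in the 6 libraries. CHAF1B, of the chromatin assembly factor, was at 25.2 and 28.1 CPM in controls, 22.4 and 31.0 in LM2, 23.9 in bleomycin and 26.3 in the ITGB4-high library.

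Fork checkpoint and repair genes had a median over 5 genes of −0.39 in LM2 clone 1, 0.22 in clone 3 and 0.01 in bleomycin. CLSPN (claspin), which passes on the ATR signal, was at 23.1 and 27.7 CPM in controls, 16.4 and 25.2 in LM2, 20.5 in bleomycin and 15.5 in the ITGB4-high library. BLM, the helicase lost in Bloom syndrome, was at 35.5 and 34.8 CPM in controls, 33.2 and 44.8 in LM2, 51.4 in bleomycin and 43.2 in the ITGB4-high library. DTL, which targets CDT1 for destruction, was at 71.0 and 79.8 CPM in controls, 62.1 and 92.4 in LM2, 71.3 in bleomycin and 82.5 in the ITGB4-high library. CLSPN and BLM thus lay on opposite sides of control in bleomycin, and DTL overlapped the controls.

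Few genes kept 1 order in every lung library. All 3 lung libraries were above both controls in 3 of 54 genes (CDC6, RRM1 and CDC25A), beside 20.4% of all tested genes. They were below both in 8 of 54 (MCM3, MCM6, POLA1, UNG, UHRF1, CCNE1, CCNE2 and E2F1), beside 25.4%. Each lung library was above the control of its own clone in 6 of 54, beside 23.9%, and below it in 16 of 54, beside 29.1%. These member shares were below or close to the background shares.

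ITGB4-high cells in dishes also had a low median for the set. Their median ratio was −0.24 to control 1 and −0.33 to control 3, against −0.01 and −0.02 over all genes. The ITGB4-high library was below both controls in 34 of 54 genes, beside 45.2% of all genes, and lowest of the 6 libraries in 18 of 54, beside 25% of all genes. The fitted difference from control was −2.84 ± 0.61 (SE) for TYMS, with an edgeR adjusted p of 0.0955, and −2.03 ± 0.35 for TK1, with 0.0747. With the clone number as a block in the fit, where the ITGB4-high library has no clone number and was set midway between the clones, both passed beside 2.32% of all genes: TYMS fell by 2.82 on the log2 scale, with an adjusted p of 0.0282, and TK1 fell by 2.02, with 0.0398. E2F8 was at −2.69 ± 0.64 (SE) with an adjusted p of 0.105, and MCM6 at −1.39 ± 0.32 with 0.101, both named after their values were seen. MCM6 was at 107 and 124 CPM in controls, 65.4 and 100 in LM2, 95.6 in bleomycin and 44.1 in the ITGB4-high library. TYMS shares 967 exon bases with ENOSF1 on the opposite strand, which was at 66.8 CPM in the ITGB4-high library and at 118 to 145 elsewhere.

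Against the same ITGB4-high library, lung cells were higher in the genes that were lowest there. The fitted lung difference from ITGB4-high was 2.23 ± 0.54 (SE) for TYMS, 1.55 ± 0.40 for TK1, 2.99 ± 0.75 for E2F8 and 0.98 ± 0.23 for RRM2. Their edgeR adjusted p-values were 0.131, 0.144, 0.14 and 0.128. For CDC25A the same difference was −0.08 ± 0.16 (SE), with an adjusted p of 0.833, and its lung values of 33.2 to 35.7 CPM lay just under the 35.9 of the ITGB4-high library. The comparisons with control and with lung share the ITGB4-high library, so a low value there enters both. Between the triggers, the smallest adjusted p of the 54 genes was 0.926, and RRM1 had a fitted difference of 0.78 ± 0.22 (SE) with an unadjusted p of 0.0192.

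**Figure D4:**
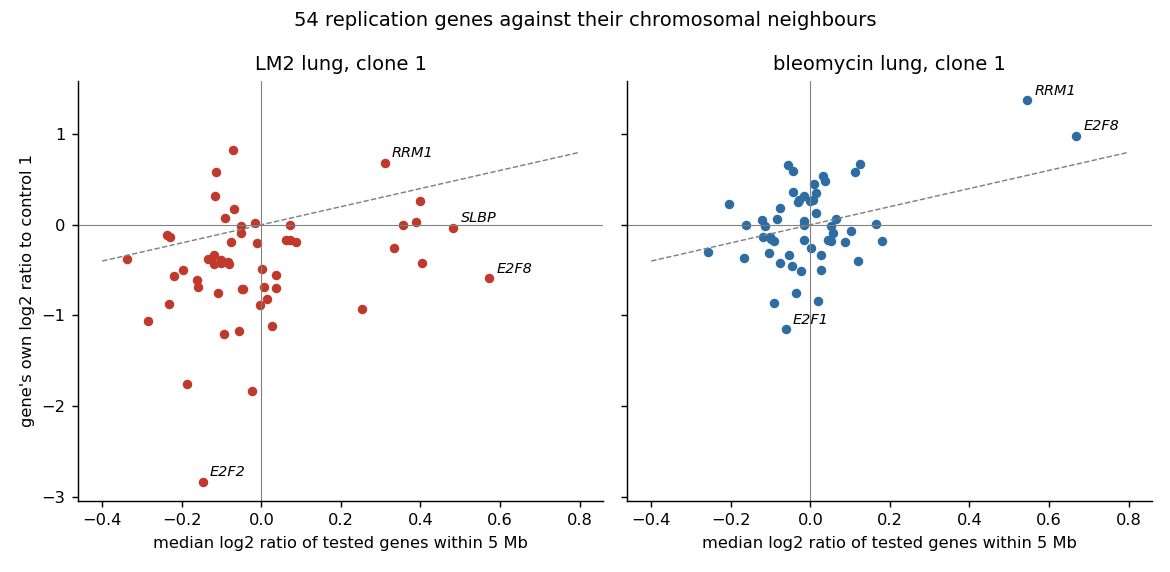
Log2 ratio to control 1 of each of the 54 genes (y axis) against the median ratio of tested genes within 5 Mb (x axis), in LM2 clone 1 and bleomycin; 1 point per gene, dashed line for equal values. RRM1 and E2F8 have raised neighbours in bleomycin, at 0.55 and 0.67, while most other genes sit near 0 on the x axis.

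Chromosome position was set beside the ratios, since RRM1 and E2F8 lie on the short arm of chromosome 11. In bleomycin, 198 tested genes below 28 Mb of chromosome 11 had a median ratio of 0.57, and 661 genes above it −0.03. RRM1 was at 1.38 beside 0.55 for its 110 neighbours within 5 Mb, a difference of 0.83. E2F8 was at 0.99 beside 0.67 for 43 neighbours, a difference of 0.32. In LM2 clone 1 both sides of chromosome 11 were raised, at 0.39 and 0.38, and E2F8 at −0.59 was 1.17 below its neighbours. Chromosome 4 was raised there too, with a median of 0.29 over 617 tested genes. SLBP, on chromosome 4, was at −0.03 beside 0.48 for 59 neighbours, a difference of −0.51. For the 54 genes the median less that of the neighbours was −0.35 in LM2 clone 1, with 44 of 54 below 0, 0.07 in LM2 clone 3 and −0.02 in bleomycin. Without the 6 genes on chromosome 11 the medians were −0.43, 0.04 and −0.01, so the level of LM2 clone 1 was as low without them. For E2F1 the neighbours were at −0.02, −0.10 and −0.06 in the 3 lung libraries, and for CDC25A at −0.12, −0.10 and −0.04.

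Other factors of the pathway were taken from lists written with earlier results of these data known. Genes named from these lists were picked for a large mean lung ratio in either direction, except CDK6, so they do not stand for their lists. Of 40 other replication factors 39 were tested, 0 passed in any comparison, and their medians were −0.12 in LM2 clone 1, 0.17 in clone 3 and 0.11 in bleomycin. Of 30 cell cycle controllers 28 were tested and 0 passed, with medians of 0.03, −0.08 and 0.04. CDKN1A (p21), the inhibitor of CDK2, was at 13.8 and 18.6 CPM in controls, 63.9 and 27.8 in LM2, 44.0 in bleomycin and 72.2 in the ITGB4-high library. E2F7, a repressor paired with E2F8, was at 48.3 and 58.7 CPM in controls, 184 and 86.3 in LM2, 85.4 in bleomycin and 204 in the ITGB4-high library. Both had their highest values in the ITGB4-high library and LM2 clone 1, and both were above the controls in all 4 other libraries. The same libraries were highest for CDK6, at 309 CPM in LM2 clone 1 and 190 in the ITGB4-high library. CDK6 was at 123 and 125 CPM in controls, 164 in LM2 clone 3 and 101 in bleomycin. Whether these levels bear on the replication genes was not tested. CDKN2C (p18), an inhibitor of CDK4 and CDK6, ran the other way from CDKN1A and E2F7. It was at 39.3 and 60 CPM in controls, 9.44 and 33.4 in LM2, 21.5 in bleomycin and 8.16 in the ITGB4-high library. CCND2 (cyclin D2) was at 87.1 and 102 CPM in controls, 34.5 and 23.7 in LM2, 9.28 in bleomycin and 76.8 in the ITGB4-high library. For lung against control the edgeR adjusted p was 0.13 for CDKN1A, 0.188 for E2F7, 0.242 for CDKN2C and 0.117 for CCND2.

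Among the other replication factors, RFC1, the large clamp loader subunit, was at 229 and 215 CPM in controls, 477 and 287 in LM2, 247 in bleomycin and 332 in the ITGB4-high library. RRM2B, the p53-induced small subunit of ribonucleotide reductase, was at 59.9 and 64.0 CPM in controls, 94.9 and 77.8 in LM2, 85.6 in bleomycin and 80.6 in the ITGB4-high library. Both were above the controls in all 4 other libraries, which RRM2 was not. DUT, which clears dUTP, was at 86.4 and 106 CPM in controls, 51.2 and 85.5 in LM2, 74.2 in bleomycin and 44.4 in the ITGB4-high library, below both controls in all 4 as UNG was. POLE4, an accessory subunit of the leading-strand polymerase, was at 22.9 and 26.4 CPM in controls, 18.7 and 20.6 in LM2, 14.6 in bleomycin and 11.9 in the ITGB4-high library.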

How the data were processed

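Poly(A) RNA was sequenced from 6 libraries: 1 ITGB4-high, 2 control, 2 LM2 lung and 1 bleomycin lung. Per the labels' protocols, the KAPA mRNA HyperPrep kit gave strand-marked libraries. The submitters' processing notes name STAR 2.7.1a and hg38. The deposited values are raw counts per gene from the authors; counter, annotation and strand setting: not given in the sources used here. Of 58336 identifiers, 58216 matched GENCODE 29 (GRCh38), which gave names, positions and exon lengths.

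CPM used TMM factors. The test was edgeR 4.0.16 (R 4.3.3), quasi-likelihood with robust fitting, filterByExpr at a minimum count of 10 and Benjamini-Hochberg adjustment over 15673 genes, at a threshold of 0.05. Every fit held all 6 libraries, and a group of 1 borrowed its spread from the groups of 2. Comparisons of single groups used 4 groups (residual degrees of freedom 2, biological coefficient of variation 0.244), and those of all lung cells used 3 classes (3 and 0.243). Log2 ratios of single libraries had a prior count of 2 and no test. A floor of 3 counts, the limit that a count of 0 allows, was 0.138 to 0.232 CPM; it covers counting error only, because reads here carry no molecular identifiers.

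Clone numbers in the titles pair the libraries, since a shared number means a shared clone; over 15673 genes the clone deviations of control and LM2 correlated at 0.001. Alternatives were DESeq2 1.42.0, limma-voom 3.58.1, other scaling, filters and prior counts, the clone block, and each library left out. The test was checked on simulated data. The genes, lists, roles and alternatives were chosen with earlier results of these data known. Replication genes with values in all 6 libraries were a core of 17, those called, and the highest and lowest mean lung ratio of each role. Those whose lung libraries cleared both controls by 0.5 in every ratio were added, and any others are named as seen afterwards. In the other lists no gene was called, and the genes shown were picked by the size of their mean lung ratio, so by their values. CDK6 lay outside this rule.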

Additional observations from a re-analysis of the deposited data

Results flagged for a closer look

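In 6 results the LM2 ratios of both clones to their own controls differed in sign. With 1 library on each side, no difference between the clones was tested. CDT1, which helps to load the helicase, was at −0.70 in clone 1 and 0.37 in clone 3. The median of all 54 genes was −0.42 in clone 1 and 0.04 in clone 3. For the licensing genes the medians were −0.69 and 0.01, and for the polymerases and primase −0.28 and 0.13. In clone 3 the medians of all 54 genes and of the licensing genes were thus close to control, with 5 licensing genes above 0 and 5 below. For the clamp, loader and lagging-strand genes they were −0.21 and 0.12, and for the fork checkpoint and repair genes −0.39 and 0.22.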

How the results depend on the processing

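With 2 or 3 residual degrees of freedom, the number of genes called depended on the fit. Without the low-count filter, 5 of the 54 genes were called for LM2 against control (5.25% of all genes), 4 for bleomycin against control (4.3%), 10 for ITGB4-high against control (8.14%), 5 for lung against control (6.47%) and 8 for lung against ITGB4-high (4.23%). Those shares are over all genes with any count, a wider set than the 15673. They take in low-count genes that the filter removes, while all 54 members pass it. The member counts therefore cannot be read against them as in the other fits. With DESeq2 the counts in the same order were 0 (4.13%), 1 (3.68%), 5 (9.63%), 1 (8.06%) and 6 (6.93%). With the clone number as a block, 2 were called for ITGB4-high against control (2.32%), the median for bleomycin against control moved from −0.11 to 0.087, and no other call differed from the fit without pairing. RLE factors, a minimum count of 30 and limma-voom left 0 called in all 6 comparisons. Leaving out each library in turn gave 0 to 33 called for LM2 against control, 0 to 16 for bleomycin against control, 0 to 27 for ITGB4-high against control, 0 to 24 for bleomycin against LM2, 0 to 2 for lung against control and 0 to 8 for lung against ITGB4-high. The counts above 0 came from the fits without an LM2 library; those without any other library gave 0. The median for LM2 against control ran from −0.45, without LM2 clone 3, to 0.10, and that for bleomycin against control from −0.141 to −0.019. The own-control medians kept their level under each prior count, filter and scaling tried, from −0.54 to −0.39 in LM2 clone 1, where library totals alone also lowered all genes to −0.16. The cause of these differences was not tested. Depth was at least 13607953 counts, so all 54 genes lay above the floor in every library.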
